A study of Zea mays with 24 samples.

Results

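Ribosomal protein genes were followed across root and shoot of maize seedlings deprived of zinc, of iron or of both. The members were every probe set of the array whose gene symbol or synonym begins with RPS or RPL and a number, together with the 1 ribosomal protein listed in the study's main table of genes. The annotation used here gives no gene descriptions, so genes named as acidic ribosomal proteins (rpp, RP-P0) or plastid ribosomal proteins (prpl) stood in for a search for the words ribosomal protein. This gave 30 probe sets for 21 genes, out of 17734 probe sets on the array, with 17 probe sets found by an RPS or RPL name, 12 by an acidic or plastid name and 1 from the study's table. Only 1452 probe sets of the array carry exactly 1 gene in the annotation, naming 1108 genes, so the 30 are the annotated part of a larger protein family. They were split into 7 probe sets of the small cytosolic subunit, 8 of the large cytosolic subunit, 11 of the acidic stalk of the large subunit, 2 of the chloroplast ribosome and 2 whose compartment the names do not settle, and no mitochondrial member was found. The compartment rests on names alone.

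The plants were seedlings of the maize inbred SKV616 grown in hydroponic solution, and the 8 groups were shoot and root of –Zn plants (no zinc salt), –Fe plants (no iron chelate), –Fe–Zn plants (neither) and +Fe+Zn plants, the complete solution that served as control. Each group has 3 replicates, 1 array each, and all were sampled after 12 days in the treatment solution. The study reports triplicate RNA isolation and does not state whether the replicates came from separate plants. All groups share 1 inbred line and 1 time point, and a sample is a weighed portion of root or shoot tissue, so fewer cells of a type and less RNA per cell cannot be told apart. The value of a probe set (a set of short oligonucleotides against 1 transcript) is a log2 signal on the deposited scale, and its lowest possible value, 2.24, marks a transcript not above background. Signals of different probe sets were not compared with each other, since each set hybridises with its own efficiency.

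Which treatment an array received rests on its label, and the labels are in doubt. The fold changes in the study's main table can be obtained from the deposited values, but only under another assignment of the arrays. There, those labelled shoot –Fe–Zn stand for the shoot control, those labelled root –Fe–Zn for root –Fe, those labelled shoot +Fe+Zn for root –Fe–Zn, and those labelled root –Fe for shoot –Fe–Zn. Leaf markers (17 probe sets) averaged 10.33 to 10.36 per array in the group labelled shoot +Fe+Zn and 4.197 to 4.537 in the group labelled root –Fe, which is the tissue of the labels and not that of the other assignment. Which treatment each group within a tissue received was not settled. All groups are named by their labels below, and each direction between treatments holds for the labels only.

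The cytosolic ribosome of plants has a small subunit that reads the mRNA and a large subunit that forms peptide bonds, each built from many proteins encoded by small gene families. The acidic proteins P0, P1 and P2, joined in plants by P3, make up the stalk of the large subunit, which recruits translation factors, and S6 of the small subunit is phosphorylated by S6 kinase, a target of the TOR kinase that responds to nutrients. Chloroplasts hold a separate, bacterial-type ribosome that translates plastid-encoded photosynthetic proteins, while most of its own proteins are encoded in the nucleus.

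Some array-wide signals moved with the groups. Across probe sets, replicate arrays of root –Fe–Zn correlated at 0.952 to 0.987, arrays of shoot –Fe–Zn correlated at 0.974 to 0.988, and in no other group did a pair fall below 0.989. The median spread of the 30 members between replicates was 0.37 (SD) in root –Fe–Zn, whereas it was 0.05 to 0.16 in the other groups. The 18S rRNA control averaged 8.95 in root –Fe–Zn and 5.18 in root +Fe+Zn. For cyclophilin, a housekeeping control, the probe set from the middle of the transcript averaged 2.76 in –Zn shoots, 9.18 in –Fe shoots, 2.77 in –Fe–Zn shoots and 4.84 in +Fe+Zn shoots. Group means of the cyclophilin probe set at the 3′ end ranged only from 13.57 to 14.20, but other control probe sets moved more. BioB-3, a spiked-in control and not a maize transcript, averaged 12.46 in root –Fe–Zn and 5.40 in root +Fe+Zn. DapX-3, also a spiked-in control, averaged 6.002 in –Zn, 10.60 in –Fe, 6.15 in –Fe–Zn and 10.26 in +Fe+Zn shoots. In the same order, a GAPDH 3′ set averaged 11.89, 14.07, 12.55 and 13.57. A ubiquitin 3′ set averaged 12.06, 12.76, 12.30 and 13.01, whereas an actin 3′ set averaged 9.68, 9.84, 9.82 and 9.01. Over all groups the leaf markers had array means of 7.81 to 10.71 in shoot and 4.06 to 4.86 in root, and 1 of several probe sets of lhcb6 was at the floor in every group of both tissues. A probe set of ppdk1 was also at the floor in shoot –Fe, shoot –Fe–Zn and shoot +Fe+Zn. In +Fe+Zn plants, 14 of the 17 leaf markers were higher in shoot than in root and 1 was lower (25.5% and 26.0% of all probe sets). Root markers (5 probe sets) had array means of 5.34 to 5.35 in root +Fe+Zn and 4.78 to 4.94 in root –Zn. These means were 3.66 to 3.74 in root –Fe and 3.52 to 3.92 in root –Fe–Zn. In +Fe+Zn plants, 3 of the 5 were lower in shoot than in root and 1 was higher (26.0% and 25.5% of all probe sets). Root –Fe and root –Fe–Zn each had 3 of the 5 lower (10.9% and 20.0% of all). Single changes ran from -5.46 to 0.17 in root –Fe and from -5.48 to 0.60 in root –Fe–Zn. The part of these signals in the results was not tested.

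In the shoot, by the labels, most cytosolic ribosomal protein genes were higher under every stress than in +Fe+Zn. A probe set was called at an adjusted p under 0.05 (limma, Benjamini-Hochberg over all 17734 probe sets). Under –Zn, 18 of the 30 members were higher and 3 lower, against 20.3% and 19.0% of all probe sets. Iron deprivation gave 18 higher and 1 lower, against 17.0% and 16.4%. With both withheld, 18 were higher and 3 lower, against 22.4% and 22.2%. The median change of the 26 cytosolic probe sets was 0.63 on the log2 scale for –Zn, 0.68 for –Fe and 0.92 for –Fe–Zn, whereas the median over all probe sets was 0.00 in each. The comparisons share the arrays labelled shoot +Fe+Zn, and the counts rest on them. With the arrays labelled shoot –Fe–Zn as control in their place, 1 member was higher and 3 lower under –Zn, against 12.1% and 10.5% of all probe sets, and 7 were higher and 11 lower under –Fe, against 22.1% and 23.3%. The cytosolic medians were then -0.05 and -0.14. Between 19.4 and 25.7% of the probe sets of an array were at the floor, where a change can hardly be called. Leaving out dim probe sets kept 28 members and 12581 probe sets in all. Of these members 18 were higher and 3 lower without zinc, against 27.2% and 27.3% of the probe sets kept, 19 higher and 1 lower without iron, against 24.4% and 23.8%, and 18 higher and 3 lower without both, against 29.9% and 31.7%. A fit without the root –Fe–Zn arrays gave 20 higher and 3 lower without zinc (24.1% and 21.2% of all), 22 and 1 without iron (19.7% and 19.3%) and 19 and 3 without both (25.4% and 24.2%). Leaf markers moved in the same libraries, with 11 of 17 lower under –Zn and 13 of 17 lower under –Fe–Zn but 4 higher and 2 lower under –Fe, and their part was not tested.

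In the root, every member called under –Fe and all but 1 of those called under –Zn rose, whereas every member called under –Fe–Zn fell. Under –Zn, 10 of 30 members were higher and 1 lower, against 13.4% and 8.46% of all probe sets. Under –Fe, 9 were higher and none lower, against 14.7% and 10.9%. Under –Fe–Zn none was higher and 14 were lower, against 8.09% and 20.0%. The median change of the cytosolic probe sets was 0.33 on the log2 scale for –Zn, 0.28 for –Fe and -0.31 for –Fe–Zn. With dim probe sets left out, 9 members were higher and none lower without zinc, against 20.1% and 12.4% of the probe sets kept, 9 and none without iron, against 21.4% and 15.9%, and none higher and 12 lower without both, against 9.68% and 29.0%. All groups share 1 estimate of the error. A fit without the root –Fe–Zn arrays, the most variable ones, called 16 members higher and 1 lower without zinc, against 18.3% and 11.2% of all probe sets, and 17 higher and 1 lower without iron, against 19.3% and 13.6%. The fall under –Fe–Zn depends on scaling. With each array centred on its median, 4 members were higher and 7 lower, against 40.1% and 13.8% of all probe sets, the median over all probe sets moved by 0.25 and that of the cytosolic members became -0.06. Of those 4, rpl39 stood well above the floor, while the dim probe sets of RP-P0, rpp1a and rpp3 lay near it. Quantile normalization gave none higher and 9 lower, against 12.2% and 13.3%. A fit of root –Fe–Zn and root +Fe+Zn alone called 3 members lower, against 7.81% of all probe sets. For the single deficiencies the split was 5 higher and 2 lower under –Zn after quantile normalization (10.1% and 9.26% of all), and 8 higher and 1 lower (12.9% and 11.4%) after quantile normalization or 7 higher and 1 lower (14.1% and 11.4%) after median centring under –Fe. In the other assignment the arrays labelled root –Fe–Zn are those of root –Fe, so the fall counted here would belong to iron deprivation alone.

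Markers of dividing cells (histones, PCNA, cyclins and MCM proteins, 22 probe sets) were measured beside them, since growing tissue makes ribosomes. In the root, 6 were higher and none lower under –Zn, against 13.4% and 8.46% of all probe sets. Root –Fe gave 7 higher and 1 lower (14.7% and 10.9% of all), and root –Fe–Zn 2 higher and 6 lower (8.09% and 20.0%). In the shoot, 3 were higher and 2 lower under –Zn (20.3% and 19.0% of all). There, –Fe gave 2 higher and 5 lower (17.0% and 16.4%), and –Fe–Zn 3 higher and 3 lower (22.4% and 22.2%). At the floor were 5 of the 22 in root –Zn, root –Fe and root +Fe+Zn and 3 in root –Fe–Zn, several of them probe sets of histone H1. The mean signal of the 22 markers per array was 5.94 to 6.0 in root –Zn, 5.84 to 5.94 in root –Fe, 5.24 to 5.53 in root –Fe–Zn and 5.57 to 5.65 in root +Fe+Zn. In the shoot the same means were 3.98 to 4.02 in –Zn, 3.68 in –Fe, 3.89 to 3.98 in –Fe–Zn and 3.87 to 3.88 in +Fe+Zn, and 10 of the 22, among them those of cyc1, cyc3 and MCM7 and 1 of several of MCM6, were at the floor in shoot –Fe and shoot +Fe+Zn. Their part in the ribosomal protein changes was not tested.

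**Figure D1:**
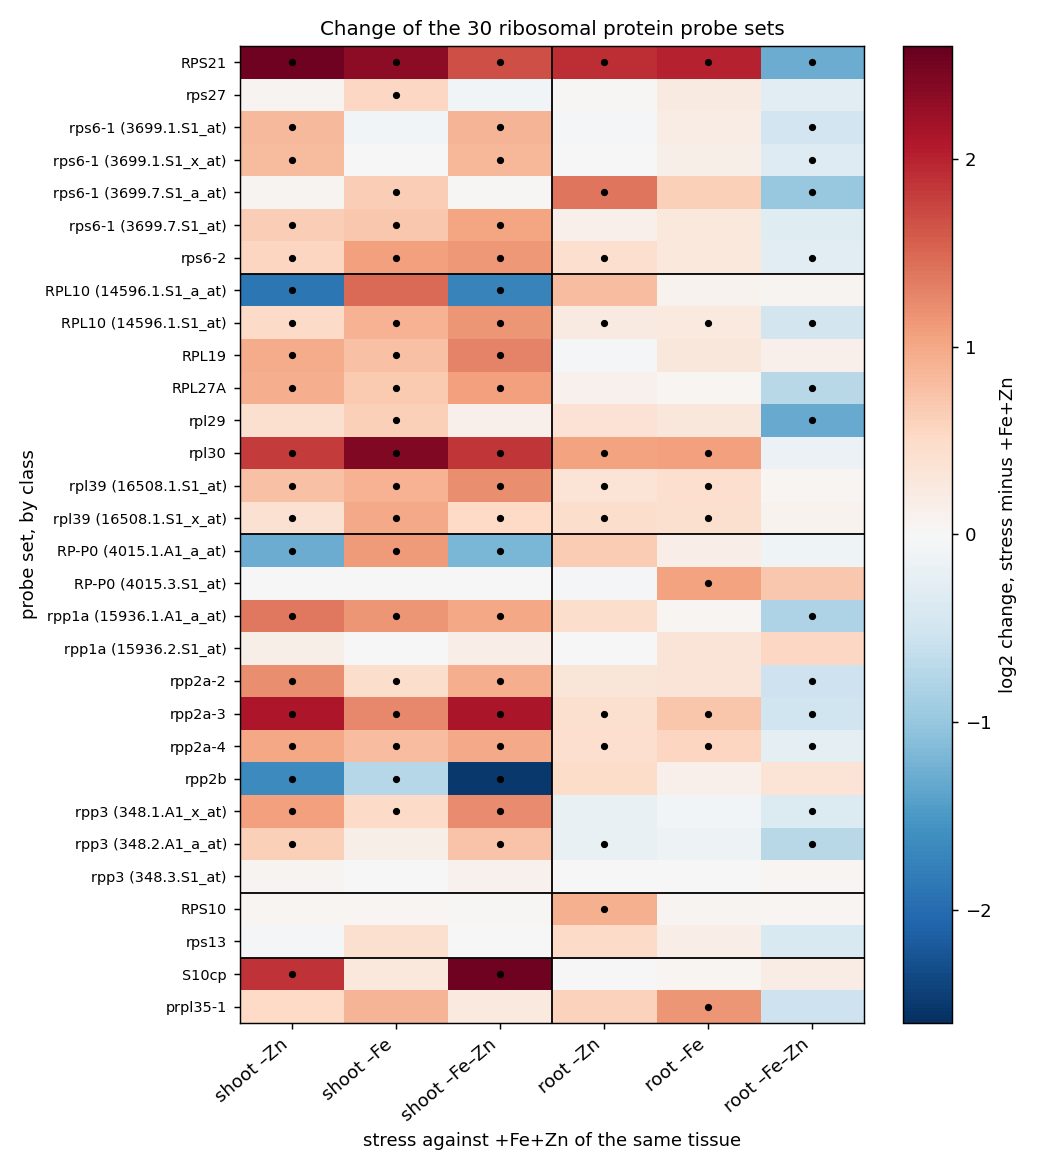
Log2 change of each of the 30 ribosomal protein probe sets (rows, grouped as small subunit, large subunit, acidic stalk, compartment not given and chloroplast) in each stress against +Fe+Zn of the same tissue (columns, groups as labelled). Colour gives the change, red for higher under stress, and a black dot marks an adjusted p under 0.05: the shoot columns hold 18 red dotted cells each, and the root –Fe–Zn column 14 blue ones.

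Among the small subunit proteins, RPS21, a small protein particular to eukaryotic ribosomes, changed most. In the shoot its signal was 9.28, 9.55 and 9.45 on the –Zn arrays, 9.21, 9.37 and 9.08 on the –Fe arrays, 8.34, 8.54 and 8.82 on the –Fe–Zn arrays and 6.81, 6.89 and 7.0 on the +Fe+Zn arrays. All stressed shoots lay above all +Fe+Zn shoots. The rise was 2.53 ± 0.35 under –Zn (log2 ± SE, adjusted p = 1.38e-05, limma), 2.32 under –Fe (adjusted p = 3.65e-05) and 1.67 under –Fe–Zn (adjusted p = 0.000676).

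In the root the same probe set gave 12.34, 12.09 and 12.22 on the –Zn arrays, 12.36, 12.17 and 12.38 on the –Fe arrays, 7.70, 9.93 and 9.42 on the –Fe–Zn arrays and 10.29, 10.12 and 10.50 on the +Fe+Zn arrays. Both single deficiencies lay above the controls, and the double deficiency lay below them with 1 array far under the other two. RPS21 rose by 1.92 under –Zn (adjusted p = 0.000537) and 2.00 under –Fe (adjusted p = 0.000278), and fell by 1.29 under –Fe–Zn (adjusted p = 0.0096, limma), a call that was lost in a fit per tissue and in a fit of only those 2 groups. On the replicate 1 array of root –Fe–Zn, where RPS21 was at 7.70, the mid-transcript cyclophilin control was at 6.44, against 10.98 and 10.83 on the other root –Fe–Zn arrays, and the part of that in the result was not tested.

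The S6 genes, rps6-1 and rps6-2, encode the phosphorylated protein of the small subunit. rps6-2 measured 10.129, 9.995 and 10.027 in the –Zn shoots, 10.58, 10.46 and 10.64 in the –Fe shoots, 10.66, 10.58 and 10.63 in the –Fe–Zn shoots and 9.46, 9.50 and 9.50 in the +Fe+Zn shoots. It rose in all 3, by 0.56, 1.07 and 1.14 on the log2 scale (adjusted p at most 0.000225, limma).

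For rps6-1 the 4 probe sets did not move alike. One pair, an _at and an _x_at set built on the same sequence cluster, rose under –Zn (0.84 and 0.83) and –Fe–Zn (0.89 and 0.87) in the shoot but changed by -0.08 and 0.01 under –Fe, without passing the test. The other pair, built on a second cluster, comprises an _at and an _a_at set. Its _at set rose under all 3 shoot stresses, by 0.65, 0.70 and 1.02, and its _a_at set was at 3.39 to 4.36 in all shoots and passed the test there under –Fe alone (0.63, adjusted p = 0.0377).

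In the root, the rps6-1 _a_at set read 7.22, 7.63 and 7.80 on the –Zn arrays, 7.16, 6.68 and 6.45 on the –Fe arrays, 4.74, 5.33 and 5.44 on the –Fe–Zn arrays and 5.73, 6.24 and 6.49 on the +Fe+Zn arrays. It rose by 1.39 under –Zn (adjusted p = 0.00017, limma) and fell by 0.99 under –Fe–Zn (adjusted p = 0.00278), whereas the other 3 rps6-1 probe sets changed by at most 0.14 under –Zn without passing the test. The suffixes _a_at and _x_at mark probes that match several transcripts of a gene or related genes, so probe sets of 1 gene may read different mixtures. rps27, whose protein carries a zinc-binding motif in yeast and mammals, rose in shoot –Fe (0.53, adjusted p = 0.0011) and in no other comparison passed the test, with changes between -0.27 and 0.23 in the other 5.

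Of the 8 large subunit probe sets, 6 were higher and 1 lower in shoot –Zn (20.3% and 19.0% of all probe sets), 7 were higher in shoot –Fe (17.0% of all), and 6 were higher and 1 lower in shoot –Fe–Zn (22.4% and 22.2%). rpl30, whose yeast protein also controls splicing of its own mRNA, measured 8.30, 7.96 and 7.93 in the –Zn shoots, 8.84, 8.50 and 8.64 in the –Fe shoots, 8.04, 8.35 and 7.93 in the –Fe–Zn shoots and 6.39, 6.11 and 6.26 in the +Fe+Zn shoots. No stressed shoot came within 1 log2 unit of a control shoot. The rises were 1.81, 2.41 and 1.86 (SE 0.12 each, adjusted p at most 3.41e-09, limma). Against the arrays labelled shoot –Fe–Zn, rpl30 changed by -0.04 under –Zn and rose by 0.55 under –Fe (adjusted p = 0.0013).

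In the root rpl30 was at 11.22, 11.18 and 11.42 on the –Zn arrays, 11.33, 11.26 and 11.31 on the –Fe arrays, 10.07, 9.90 and 10.29 on the –Fe–Zn arrays and 10.25, 10.21 and 10.24 on the +Fe+Zn arrays. It rose by 1.04 under –Zn (adjusted p = 6.97e-06) and 1.07 under –Fe (adjusted p = 3.77e-06), and under –Fe–Zn its arrays overlapped the controls (change -0.15, adjusted p = 0.428, limma). RPL19, RPL27A and the probe sets of rpl39, whose protein lines the exit tunnel of the ribosome, all rose under every shoot stress, by 0.40 to 1.28. The symbol RPL27A is shared in the gene tables with a ubiquitin fusion gene of similar name (RPS27A), so its identity is uncertain. In the root, both rpl39 probe sets rose under –Zn (0.35 and 0.46) and –Fe (0.43 and 0.41), and RPL27A fell under –Fe–Zn (by 0.71, adjusted p = 0.00105).

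The _at and _a_at probe sets of RPL10, a protein needed to join the subunits, went opposite ways in shoots lacking zinc. The RPL10 _at set measured 11.86, 11.79 and 11.79 in the –Zn shoots, 12.22, 12.17 and 12.28 in the –Fe shoots, 12.37, 12.50 and 12.49 in the –Fe–Zn shoots and 11.32, 11.24 and 11.39 in the +Fe+Zn shoots, a rise in all 3 (0.50, 0.91 and 1.14, adjusted p at most 2.4e-05, limma). The RPL10 _a_at set measured 6.98, 7.95 and 8.10 in the –Zn shoots, 11.223, 10.847 and 11.004 in the –Fe shoots, 9.36, 6.61 and 7.47 in the –Fe–Zn shoots and 9.70, 9.46 and 9.52 in the +Fe+Zn shoots. This probe set fell by 1.88 under –Zn (adjusted p = 0.0198) and by 1.74 under –Fe–Zn (adjusted p = 0.0271), and the change of 1.46 under –Fe did not pass the test (adjusted p = 0.0799). Without single arrays the fall ranged from -2.10 to -1.53 under –Zn and from -2.52 to -1.14 under –Fe–Zn, and it lost its call in 2 of 6 and in 5 of 6 such fits. The mid-transcript cyclophilin control was also lower than in +Fe+Zn shoots in –Zn and –Fe–Zn shoots and higher in –Fe shoots, and its part in the RPL10 values was not tested.

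**Figure D2:**
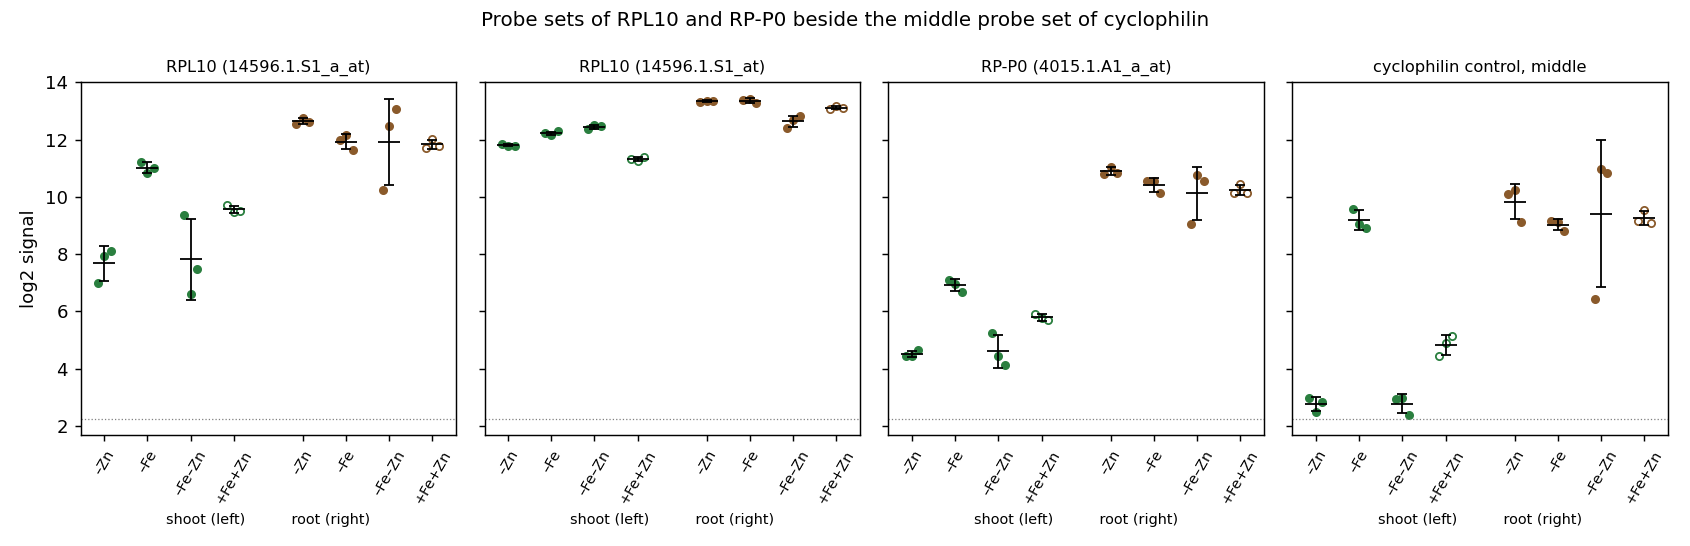
Log2 signal of 2 probe sets of RPL10, 1 of RP-P0 and the middle probe set of the cyclophilin control on each array (points), with group mean ± SD (n = 3), shoot groups left and root groups right, stresses before +Fe+Zn (open points). The dotted line is the floor of 2.24. In the shoot the RPL10 _a_at set, RP-P0 and cyclophilin are lower under –Zn and –Fe–Zn and higher under –Fe than under +Fe+Zn, while the RPL10 _at set is higher under all 3.

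rpl29 differed from the other large subunit members by its tissue. It measured 12.02, 11.76 and 11.87 in the –Zn shoots, 12.09, 12.03 and 12.12 in the –Fe shoots, 11.67, 11.55 and 11.60 in the –Fe–Zn shoots and 11.45, 11.51 and 11.44 in the +Fe+Zn shoots. Root values were 6.90, 6.84 and 7.02 on the –Zn arrays, 6.75, 6.80 and 6.95 on the –Fe arrays, 5.74, 5.52 and 4.40 on the –Fe–Zn arrays and 6.49, 6.56 and 6.57 on the +Fe+Zn arrays. It rose in shoot –Fe (0.62, adjusted p = 0.0309) and fell in root –Fe–Zn (by 1.32, adjusted p = 0.000109, limma). A fit of only root –Fe–Zn and +Fe+Zn lost the second call. Its placing in the cytosolic ribosome rests on the name alone. Without rpl29, 17 of the remaining members were higher in shoot –Fe (17.0% of all probe sets) and 13 lower in root –Fe–Zn (20.0%).

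The acidic stalk proteins held both the most precise rise and the most marked fall. rpp2a-3, a P2 protein, measured 8.81, 8.60 and 8.65 in the –Zn shoots, 7.79, 7.81 and 7.87 in the –Fe shoots, 8.63, 8.79 and 8.70 in the –Fe–Zn shoots and 6.44, 6.70 and 6.61 in the +Fe+Zn shoots. It rose by 2.11, 1.24 and 2.13 (SE 0.06 each, adjusted p = 9.98e-14, 6.84e-11 and 4.96e-14, limma). Root signals were 11.78, 11.85 and 11.79 on the –Zn arrays, 12.13, 12.14 and 12.06 on the –Fe arrays, 10.80, 10.86 and 10.97 on the –Fe–Zn arrays and 11.38, 11.41 and 11.39 on the +Fe+Zn arrays. Here it rose by 0.41 and 0.72 under the single deficiencies and fell by 0.52 under –Fe–Zn (adjusted p at most 0.000108), with no overlap of arrays in any of these comparisons.

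The other P2 genes of this name, rpp2a-2 and rpp2a-4, also rose under all 3 shoot stresses, by 1.22, 0.46 and 0.94 for rpp2a-2 and by 1.01, 0.80 and 0.98 for rpp2a-4. rpp2b, the P2 gene of the other type, went the other way. It measured 9.66, 10.16 and 10.12 in the –Zn shoots, 10.95, 10.98 and 10.72 in the –Fe shoots, 10.05, 8.56 and 8.72 in the –Fe–Zn shoots and 11.83, 11.50 and 11.54 in the +Fe+Zn shoots. All stressed shoots lay below all control shoots, and it fell by 1.65 under –Zn (adjusted p = 0.000102), by 0.74 under –Fe (adjusted p = 0.0475) and by 2.51 under –Fe–Zn (adjusted p = 6.69e-07, limma). The –Fe call was lost in every fit that left out 1 array and with the replicate number as a block, while the size stayed between -0.80 and -0.64. Against the arrays labelled shoot –Fe–Zn, rpp2b was higher by 0.87 under –Zn (adjusted p = 0.0305) and by 1.77 under –Fe (adjusted p = 3.82e-05). In the root its changes were 0.48, 0.12 and 0.36 and did not pass the test.

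rpp3, which encodes the plant-specific P3, had 2 well measured probe sets. The _x_at set rose in all 3 shoot stresses, by 1.07, 0.50 and 1.23. The _a_at set rose by 0.61 (–Zn) and 0.74 (–Fe–Zn) and changed by 0.15 in –Fe shoots (adjusted p = 0.0812). In the root, the _a_at set was at 13.77, 13.77 and 13.78 on the –Zn arrays, 13.80, 13.83 and 13.85 on the –Fe arrays, 13.46, 13.13 and 13.15 on the –Fe–Zn arrays and 13.99, 14.00 and 13.89 on the +Fe+Zn arrays. It was the single member lower in root –Zn (by 0.18, adjusted p = 0.0488, lost in 5 of 6 fits without 1 array), and it fell by 0.71 under –Fe–Zn (adjusted p = 1.6e-07). Its arrays lay under the control roots in all 3 treatments, and the –Fe change of -0.13 did not pass the test (adjusted p = 0.156).

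rpp1a (_a_at set), a P1 gene, measured 8.96, 8.74 and 8.77 in the –Zn shoots, 8.53, 8.61 and 8.69 in the –Fe shoots, 8.34, 8.74 and 8.33 in the –Fe–Zn shoots and 7.38, 7.68 and 7.32 in the +Fe+Zn shoots. It rose by 1.36, 1.15 and 1.01 (adjusted p at most 0.00564, limma). In the root it fell by 0.81 under –Fe–Zn (adjusted p = 0.0362), where its arrays were 9.16, 10.69 and 10.73 against 10.89, 11.08 and 11.03 in root +Fe+Zn. The call was lost in 4 of 6 fits without 1 array, and without the lowest of these the change was -0.29.

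RP-P0 (_a_at set), the base of the stalk, measured 4.44, 4.44 and 4.64 in the –Zn shoots, 7.10, 6.94 and 6.68 in the –Fe shoots, 5.25, 4.44 and 4.12 in the –Fe–Zn shoots and 5.93, 5.76 and 5.69 in the +Fe+Zn shoots. It fell by 1.28 under –Zn (adjusted p = 0.00465), rose by 1.12 under –Fe (adjusted p = 0.0136) and fell by 1.19 under –Fe–Zn (adjusted p = 0.00687, limma), the same order of groups as the mid-transcript cyclophilin control shows, whose part was not tested. Its second probe set was at the floor in all shoots. In root –Fe it read 3.74, 3.31 and 3.84 against 2.31, 2.71 and 2.77 in root +Fe+Zn (rise of 1.04, adjusted p = 0.0214, lost in 3 of 6 fits without 1 array), near the floor. The second probe set of rpp1a reached at most 3.70 and the third of rpp3 at most 2.59 on any array, so both are not above background or close to it.

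Leaving out the 8 probe sets with an _a_at or _x_at suffix left 22 members. Of these, 13 were higher in each shoot comparison and 1, rpp2b, was lower in each, against 20.9% and 17.9% (–Zn), 16.5% and 16.6% (–Fe) and 23.0% and 21.0% (–Fe–Zn) of all probe sets without these suffixes. In the root, 8 were higher under –Zn (12.9% of all such probe sets), 8 under –Fe (15.1%), and 9 were lower under –Fe–Zn (19.6%).

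**Figure D3:**
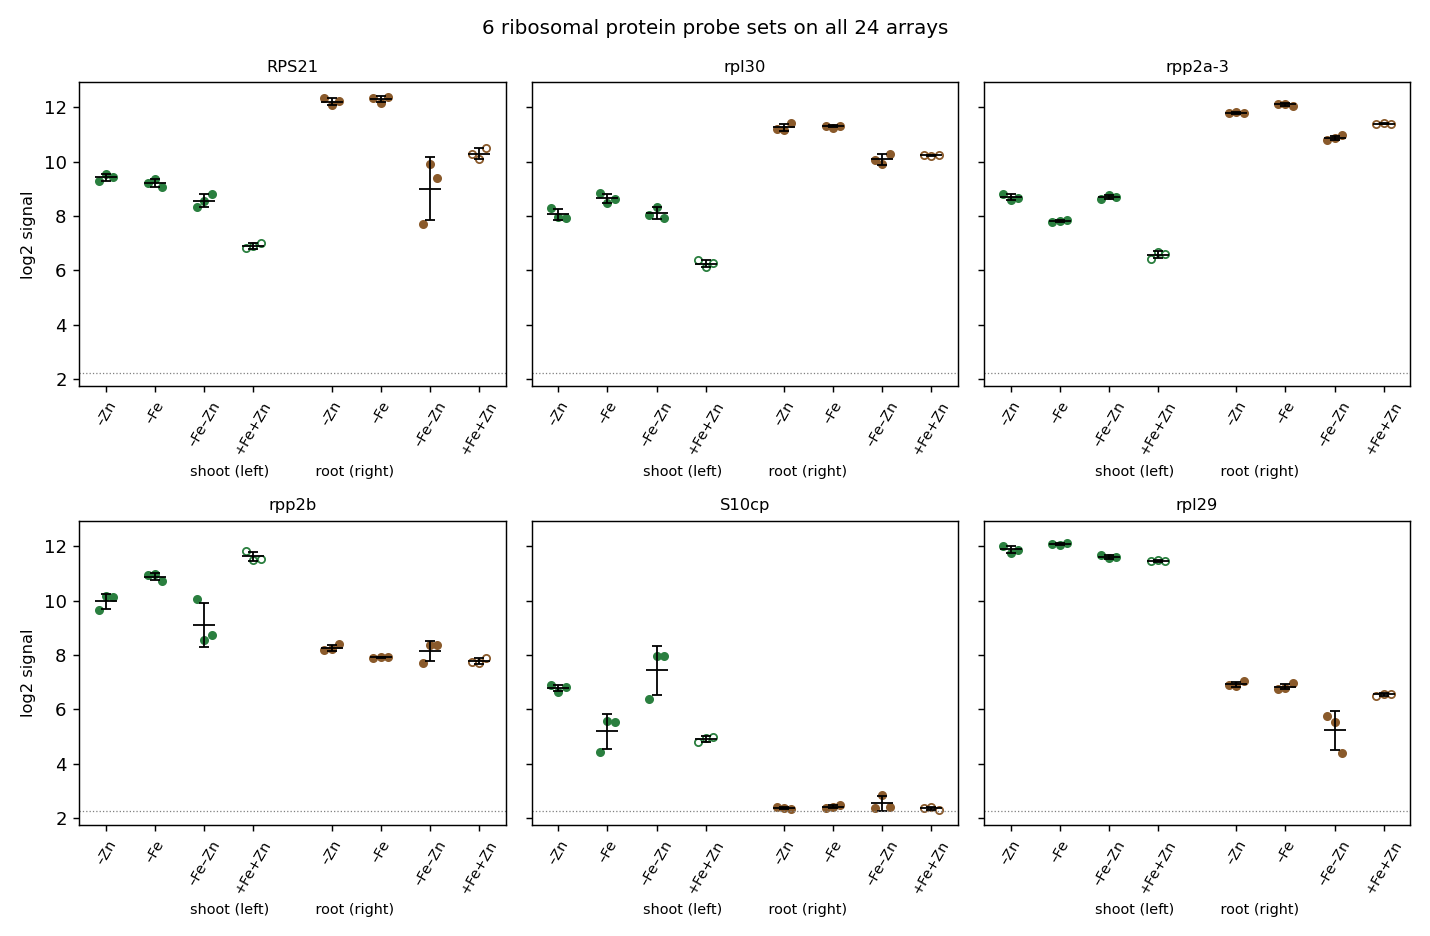
Log2 signal of RPS21, rpl30, rpp2a-3, rpp2b, S10cp and rpl29 on every array (points) with group mean ± SD (n = 3), shoot groups left and root groups right, each with the 3 stresses before +Fe+Zn (open points). The dotted line is the floor of 2.24. In the shoot RPS21, rpl30 and rpp2a-3 lie above the control under each stress and rpp2b below it, and S10cp stays near the floor in every root group.

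The chloroplast ribosome was represented by S10cp, the chloroplast S10 protein of the small subunit from the study's table, and prpl35-1, a plastid L35 gene. S10cp measured 6.88, 6.64 and 6.82 in the –Zn shoots, 4.44, 5.57 and 5.54 in the –Fe shoots, 6.39, 7.97 and 7.94 in the –Fe–Zn shoots and 4.78, 4.95 and 4.99 in the +Fe+Zn shoots. The treatments without zinc lay above the controls, and –Fe overlapped them. S10cp rose by 1.88 ± 0.33 under –Zn (log2 ± SE, adjusted p = 0.000148) and by 2.53 under –Fe–Zn (adjusted p = 4.5e-06), with a change of 0.28 under –Fe (adjusted p = 0.745, limma). In the root it stayed between 2.30 and 2.86 on all arrays. This member entered the list through a table that the study drew from these arrays, so its shoot changes are not independent of its choice. The table gives it the opposite direction in the shoot, under the other assignment of arrays described above. Against the arrays labelled shoot –Fe–Zn, S10cp changed by -0.65 under –Zn (adjusted p = 0.182) and fell by 2.25 under –Fe (adjusted p = 1.79e-05).

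prpl35-1 measured 12.31, 12.07 and 11.99 in the –Zn shoots, 12.38, 12.46 and 12.57 in the –Fe shoots, 11.86, 11.83 and 11.87 in the –Fe–Zn shoots and 11.72, 11.49 and 11.57 in the +Fe+Zn shoots. Every stressed shoot lay above the controls, by 0.53, 0.88 and 0.26 on average, and none of these changes passed the test (adjusted p = 0.334, 0.101 and 0.71). In the root it read 6.07, 6.22 and 6.39 under –Fe against 5.11, 4.95 and 5.20 under +Fe+Zn, a rise of 1.14 (adjusted p = 0.038) that no fit without 1 array kept, and 6.07, 3.61 and 3.98 under –Fe–Zn.

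RPS10 and rps13 have no settled compartment, since these numbers also name a protein encoded on an organelle genome or the chloroplast protein of the study's table. The numbers of the other members were not checked against organelle proteins encoded in the nucleus. RPS10 was at or near the floor in every shoot. Its root signal was 3.41, 3.52 and 3.55 under –Zn against 2.62, 2.65 and 2.48 under +Fe+Zn, a rise of 0.92 (adjusted p = 0.0022, limma). The size of that rise is uncertain so close to background, and 15 of the 24 arrays lay within 0.1 of the floor. rps13 passed the test under no stress, with shoot changes of -0.05, 0.41 and -0.01 and root changes of 0.51, 0.17 and -0.40.

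The 2-factor design allows a test, by the labels, of whether the double deficiency equals the sum of the single ones. The Fe by Zn interaction is the –Fe–Zn change minus the sum of the –Fe and –Zn changes, so a negative value means a lower signal than that sum. In the root, 21 of 30 members had a negative interaction past the threshold and none a positive one, against 25.3% and 10.4% of all probe sets. All 7 small subunit probe sets were among them, as were 6 of 8 large subunit, 5 of 11 stalk, both of unsettled compartment and 1 of 2 chloroplast probe sets. In the shoot, 12 were negative and none positive, against 13.1% and 11.3%. The median interaction of the cytosolic probe sets was -0.79 in the root and -0.52 in the shoot. The root interaction includes the root –Fe–Zn arrays, the most variable ones, and its error is pooled over all groups. Dividing-cell markers showed 11 of 22 negative and none positive in the root, and 1 negative and 3 positive in the shoot.

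RPS21 had the largest interaction in both tissues, -3.18 ± 0.49 in the shoot (log2 ± SE, adjusted p = 1e-04) and -5.21 ± 0.49 in the root (adjusted p = 2.47e-07, limma). That SE pools the spread of all 8 groups. The SD of RPS21 between replicates was 1.17 in root –Fe–Zn and 0.11 to 0.19 in the other root groups. In the shoot the next largest interactions were those of rpl30 (-2.36, adjusted p = 2.01e-08) and rpp1a (-1.50, adjusted p = 0.00805). In the root they were the rps6-1 _a_at set (-2.99, adjusted p = 9.28e-07) and prpl35-1 (-2.28, adjusted p = 0.00302). The SD of prpl35-1 between replicates was 1.33 in root –Fe–Zn and 0.12 to 0.22 in the other root groups. Its root –Fe–Zn arrays lay on both sides of the root controls. For rpl30 the shoot changes were 1.81 and 2.41 under the single deficiencies and 1.86 under the double one. S10cp and rpp2b did not share this, with shoot interactions of 0.38 and -0.13 (adjusted p = 0.671 and 0.962).

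**Figure D4:**
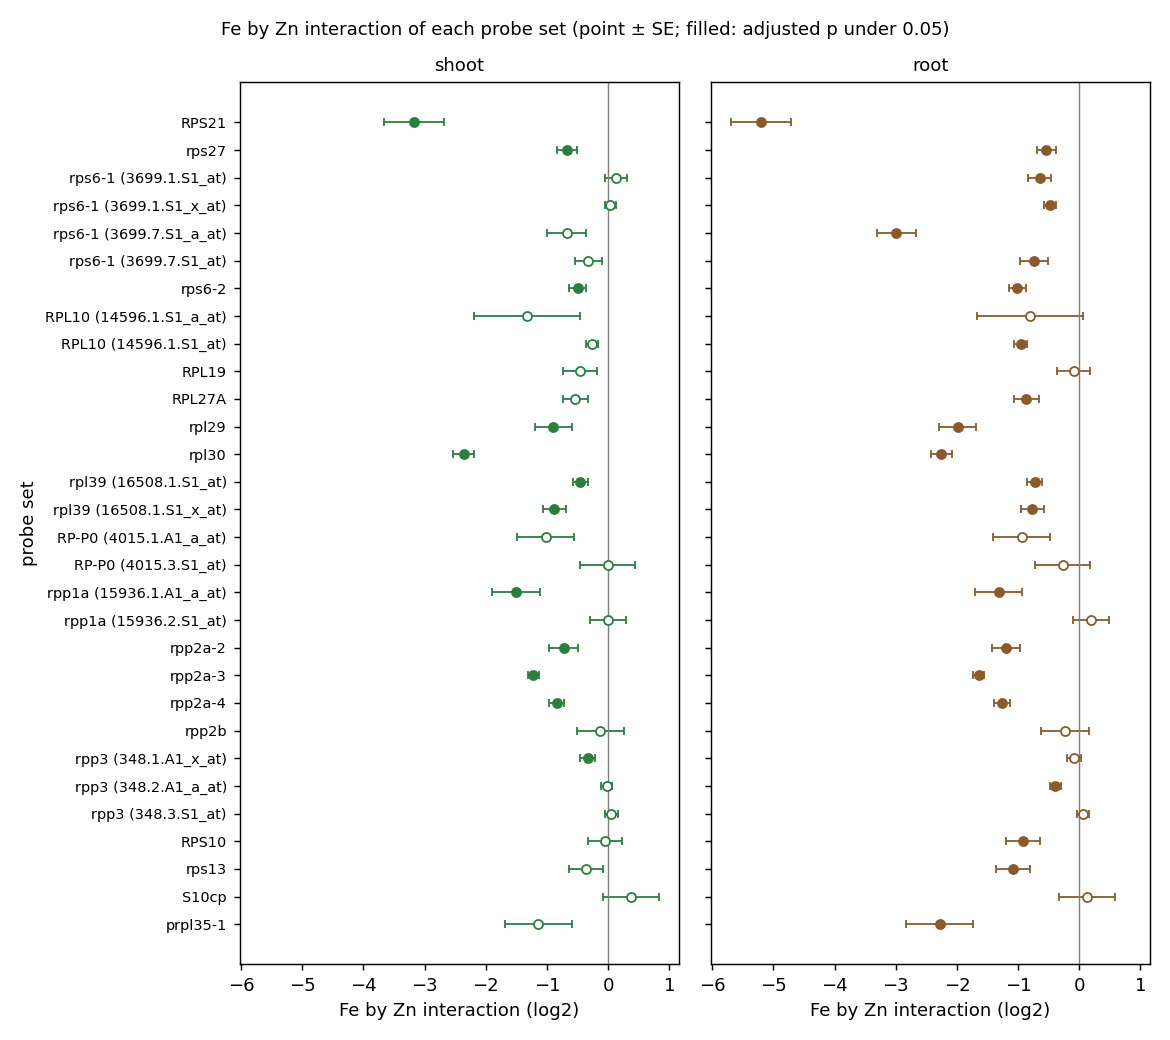
Fe by Zn interaction of each ribosomal protein probe set in shoot (left) and root (right), on the log2 scale, as estimate ± SE, with filled points at an adjusted p under 0.05. All filled points, 12 in the shoot and 21 in the root, lie left of 0.

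Whether a stress acted differently in shoot and root was tested as the shoot change minus the root change. Under –Zn, 12 members had a more positive change in the shoot and 5 a more negative one, against 15.8% and 19.3% of all probe sets. Under –Fe, 10 and none did, against 14.1% and 16.3%. Under –Fe–Zn it was 19 and 1, against 24.4% and 17.7%, and 18 and 5 after median centring, against 17.9% and 46.0%. rpp2a-3 (2.64), RPS21 (2.96) and S10cp (2.34) had the largest positive differences under –Fe–Zn, and rpp2b the single negative one called (-2.88, adjusted p = 1.11e-05).

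In the arrays labelled +Fe+Zn, the cytosolic ribosomal protein genes had far lower signals in shoot than in root. Of 30 members, 22 were lower in shoot +Fe+Zn and 4 higher, against 26.0% and 25.5% of all probe sets, and the median over the 26 cytosolic probe sets was -2.39 on the log2 scale. rpp2a-3 was at 6.44, 6.70 and 6.61 in shoot and 11.38, 11.41 and 11.39 in root (-4.81, adjusted p = 1.1e-19, limma). RP-P0 (-4.45) and rpl30 (-3.98) followed. The 4 members not called either way were the probe sets near the floor. The mid-transcript cyclophilin control was likewise lower in shoot +Fe+Zn (4.84) than in root +Fe+Zn (9.27), its 3′ probe set averaged 13.74 and 14.20 there, and dividing-cell markers averaged 3.87 to 3.88 and 5.57 to 5.65 per array. The part of these signals in the difference was not tested.

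The 4 members higher in shoot were both chloroplast genes, rpl29 and rpp2b. prpl35-1 was at 11.72, 11.49 and 11.57 in shoot +Fe+Zn and 5.11, 4.95 and 5.20 in root +Fe+Zn (6.51, adjusted p = 6.95e-11). rpl29 was higher by 4.92 (adjusted p = 6.64e-13), rpp2b by 3.84 (adjusted p = 9.29e-10) and S10cp by 2.56 (adjusted p = 2e-06, limma), the last of uncertain size, since the root signal lay close to the floor. rpl29 and rpp2b were placed in the cytosolic ribosome by name but were measured on the same side as the plastid members.

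**Figure D5:**
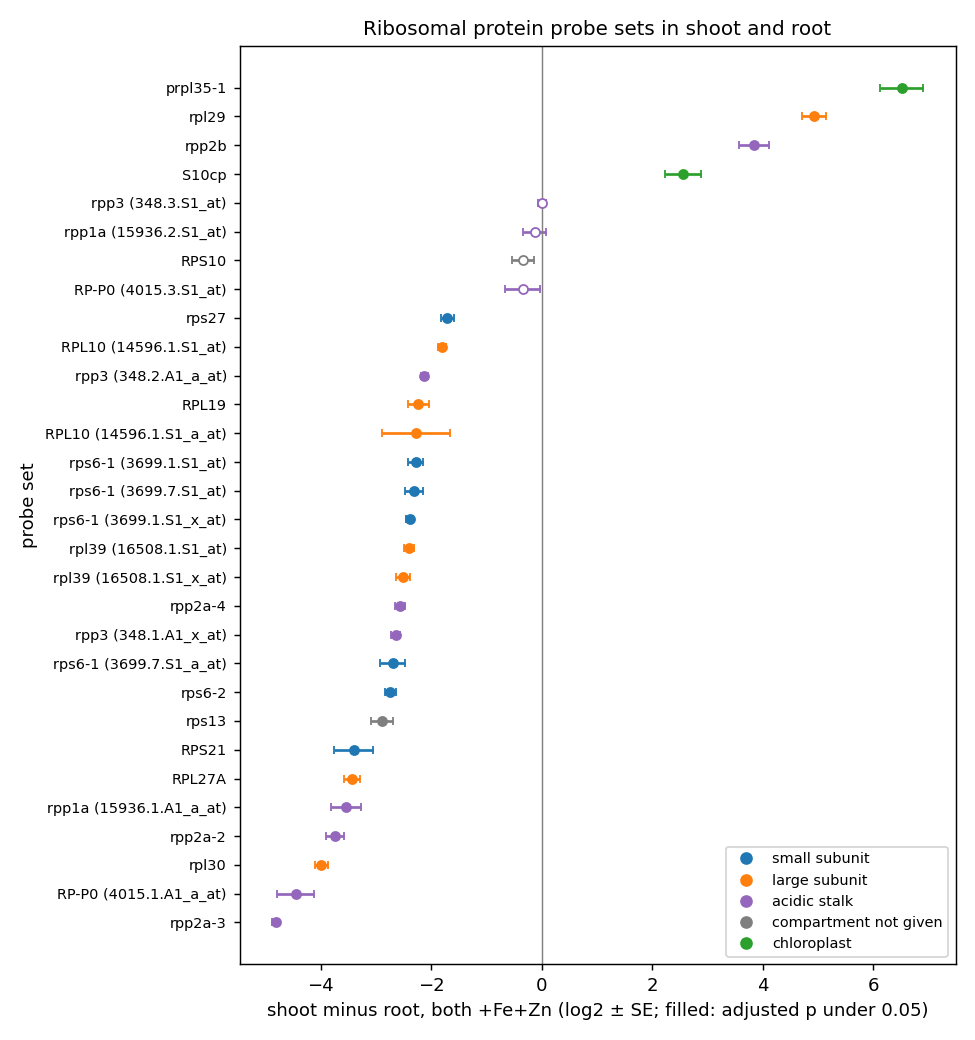
Log2 signal in shoot +Fe+Zn minus root +Fe+Zn for each of the 30 probe sets (estimate ± SE), coloured by class, with filled points at an adjusted p under 0.05. The values run from -4.81 (rpp2a-3) to 6.51 (prpl35-1), and only prpl35-1, rpl29, rpp2b and S10cp lie clearly right of 0.

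Other genes of the translation machinery were counted in the same way. Translation initiation and elongation factors (26 probe sets, many of them overlapping sets of the EF1A family) did not move in 1 direction in the shoot under zinc deprivation. There 8 were higher and 8 lower under –Zn, against 20.3% and 19.0% of all probe sets. Shoot –Fe–Zn gave 7 higher and 11 lower, against 22.4% and 22.2%, and shoot –Fe 8 higher and none lower, against 17.0% and 16.4%. In the root 3 were higher and 3 lower without zinc (13.4% and 8.46% of all). Without iron 2 were higher and 6 lower (14.7% and 10.9%), and without both 3 were higher and 10 lower (8.09% and 20.0%). tif4A2, an RNA helicase of initiation, rose with the ribosomal proteins in the shoot (0.79, 1.05 and 0.59), whereas GOS2, an eIF1-type factor, fell in –Zn and –Fe–Zn shoots (-5.44 and -4.79) and changed by 0.02 in –Fe shoots. TOR, the nutrient-sensing kinase, fell in shoot –Zn (by 2.02) and shoot –Fe–Zn (by 1.53) and rose in shoot –Fe (0.71) and root –Fe (0.82), and the part of the mid-transcript cyclophilin signal, which has the same directions in the shoot, was not tested. S6 kinase (1 probe set) changed by -0.0012, 0.0446 and -0.0012 in –Zn, –Fe and –Fe–Zn shoots and by -0.0104 in root –Fe, without passing the test. In root –Fe–Zn the 2 kinases changed by 0.01 and 0.25, and 1 was called higher (8.09% of all probe sets). The ribosome-inactivating protein gene rip2 fell in all 6 comparisons, by 1.68 in each root stress and by 0.97, 0.72 and 0.97 in the shoot. Its arrays lay at the floor under every stress other than shoot –Fe, so those falls are bounds. These genes were named after their values had been seen.

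With 3 arrays against 3, an exact permutation test of a single value cannot give a p under 0.10, so calls rest on the variance that limma pools across probe sets, and p-values measure the spread between these replicates.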

How the data were processed

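RNA of 24 maize samples, 3 replicates of root and of shoot in each of 4 treatments, was hybridised to GeneChip Maize Genome Arrays, about 300 ng of total RNA being labelled per array. The table the authors deposited holds a log2 value for each probe set on each array, made with GCRMA by the study's methods. RMA and affy, with limma, are the tools in the submitters' processing notes, with no versions, so the background correction is not settled. No raw intensities were used here, and the values entered all fits as deposited.

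In R 4.3.3 with limma 3.58.1, 8 group means were fitted to all 24 arrays, with eBayes, and stress, interaction and tissue contrasts were adjusted by Benjamini-Hochberg over 17734 probe sets. Every adjusted p is from this model unless another fit is named. The model was also run on simulated arrays with known changes in root –Zn only. Their noise was independent and had the same SD in all groups. That run therefore does not test the unequal spread of the real groups. Genes came from the array's annotation (1452 probe sets with 1 gene, 1 with several, 16281 with none), with synonyms from RefSeq, where 28 of the 30 members were found. The members, lists and tests were chosen with earlier results of these data known, the published fold changes of S10cp included. Named members are S10cp and, per stress comparison, the 4 largest rises and the 4 largest falls among called members with no overlap between the 3 stress arrays and the controls, or the 3 largest each way in interactions and between tissues. Further members and translation genes were described after their values were seen.

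Array medians lay between 3.84 and 4.21, and 19.4 to 25.7% of probe sets per array were at the floor of 2.24. The number of arrays limits the precision. A probe set was counted as at the floor in a group when all its arrays lay within 0.1 of it. Alternatives were other thresholds, fits per tissue or pair of groups, the replicate number as a block, single arrays left out, a trended robust prior, median centring, quantile normalization, removal of probe sets dim in every group (all 8 group means below 3.00, the 40th percentile), no control probe sets, 1 probe set per gene, and no members of unsettled compartment. Added after seeing the data were fits or counts without rpl29, without shared-probe suffixes, without the arrays of root –Fe–Zn, without those of the 2 zinc-deprived shoot groups, and with the arrays labelled shoot –Fe–Zn as the shoot control. Groups were taken from the labels alone, although the study's main table rests on another assignment of the arrays. Sequences of the members were not used here.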

Additional observations from a re-analysis of the deposited data

Results flagged for a closer look

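Members whose change under a stress differed between shoot and root by the interaction test, the 3 most positive and 3 most negative per stress, are given as the shoot change minus the root change on the log2 scale with limma's adjusted p. No explanation was weighed, and the groups are those of the labels, whose treatments are in doubt. Under –Zn, S10cp differed by 1.87 (adjusted p = 0.00385), rpp2a-3 by 1.70 (adjusted p = 2.94e-10) and the _x_at set of rpp3 by 1.27 (adjusted p = 2.34e-07). On the negative side under –Zn were the _a_at set of RPL10 with -2.68 (adjusted p = 0.022), rpp2b with -2.12 (adjusted p = 0.000336) and the _a_at set of RP-P0 with -1.95 (adjusted p = 0.00329). Under –Fe, rpl30 differed by 1.34 (adjusted p = 1.28e-05), rpp1a by 1.09 (adjusted p = 0.0417) and rps6-2 by 0.80 (adjusted p = 0.000338), and none was called on the negative side. Under –Fe–Zn, RPS21 differed by 2.96 (adjusted p = 9.61e-05), rpp2a-3 by 2.64 (adjusted p = 4.58e-13), S10cp by 2.34 (adjusted p = 0.000468) and rpp2b by -2.88 (adjusted p = 1.11e-05). S10cp lay near the floor in the root, so its root change could hardly have been a fall.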

How the results depend on the processing

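Of the counts recomputed under an alternative, 390 stayed within 1.5 times the reported count and 74 did not. Of the medians 108 moved by less than the spread between replicates and 16 by more, and of the named probe sets 513 values kept their call, 61 lost it and 2 changed sign. With the arrays labelled shoot –Fe–Zn in that place, 1 member was higher in –Zn (12.1% of all probe sets), and 7 were higher and 11 lower in –Fe (22.1% and 23.3%), with medians of -0.0481 (–Zn) and -0.1397 (–Fe) for cytosolic and -0.1935 (–Zn) and -0.8188 (–Fe) for chloroplast members. By the threshold of the methods (2-fold, with p not adjusted), 3 members were higher and 0 lower in root –Zn (3.94% and 3.95% of all probe sets), 4 higher in root –Fe (4.36%), 2 lower in root –Fe–Zn (8.15%), 8 higher in shoot –Zn (7.76%), and 7 higher and 0 lower in shoot –Fe (8.86% and 7.38%). By that threshold the Fe by Zn interaction was negative in 11 members in root (18.3% of all) and 5 in shoot (8.84%), and the shoot minus root change was positive in 4 (–Zn, where 1773 probe sets in all were) and 2 (–Fe, 10.1%) and negative in 1 (–Fe, 9.93%) and 2 (–Fe–Zn, 13.2%). Adding the 2-fold minimum to the adjusted p gave 3 higher and 0 lower in root –Zn (3.59% and 3.83%), 4 higher in root –Fe (4.23%), 2 lower in root –Fe–Zn (7.97%), 8 higher in shoot –Zn (7.69%), and 6 higher and 0 lower in shoot –Fe (8.73% and 7.28%). Fits of only the compared groups called 19 higher and 2 lower in root –Zn (18.2% and 10.8%), 16 higher and 1 lower in root –Fe (19.4% and 12.9%), and 3 lower in root –Fe–Zn (7.81%). Without the arrays of root –Fe–Zn there were 16 higher in root –Zn (18.3%) and 17 higher and 1 lower in root –Fe (19.3% and 13.6%). That fit also gave 3 negative shoot minus root changes in –Fe, for which the share over all probe sets was not computed.

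Quantile normalization gave 5 higher and 2 lower in root –Zn (10.1% and 9.26% of all probe sets), 1 lower in root –Fe (11.4%) and 9 lower in root –Fe–Zn (13.3%). It gave 19 positive shoot minus root changes in –Zn, where 3465 of all 17734 probe sets had one, and 2 negative ones in –Fe–Zn, where 3362 had one. Its medians were 0.17 (root –Zn), -0.22 (root –Fe–Zn), 0.99 (shoot –Zn) and 1.48 (shoot –Fe–Zn) for cytosolic members, and 1.40 (shoot –Zn) and 1.72 (shoot –Fe–Zn) for chloroplast members. Median centring gave 1 lower in root –Fe (11.4% of all probe sets) and 4 higher and 7 lower in root –Fe–Zn (40.1% and 13.8%). It gave 1 positive root Fe by Zn interaction (34.8%) and 5 negative shoot minus root changes in –Fe–Zn (46.0%). Its cytosolic medians were -0.0556 (root –Fe–Zn), 0.56 (shoot –Zn) and 0.81 (shoot –Fe–Zn). The median over all probe sets itself moved by 0.25 in root –Fe–Zn and by -0.34 for the shoot minus root change of –Fe–Zn. With 1 probe set per gene the cytosolic medians in shoot were 0.76 (–Zn), 0.80 (–Fe) and 1.02 (–Fe–Zn). Without shared-probe suffixes there were 0 lower in root –Zn, 9 lower in root –Fe–Zn, 1 lower in shoot –Zn, 1 lower in shoot –Fe–Zn, 2 negative shoot minus root changes in –Zn and 6 positive ones in –Fe. The dim filter gave 0 lower in root –Zn (12.4% of the probe sets kept). The trended robust prior also gave 0 lower in root –Zn, and a fit per tissue 0 lower in shoot –Fe, both without shares over all probe sets. The cause of these shifts was not tested.

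Leaving out 1 array at a time gave 0 to 1 lower in root –Zn, 5 to 8 higher in root –Fe, 0 to 2 higher and 10 to 14 lower in root –Fe–Zn, 0 lower in shoot –Fe, 0 to 1 positive Fe by Zn interactions in shoot and 1 to 4 negative shoot minus root changes in –Fe–Zn. The shares over all probe sets were not computed for these fits. S10cp in root –Zn, at 0.01 and never called, ranged from -0.0204 to 0.0258 and became -0.0204 without root +Fe+Zn replicate 3 and -0.0093 without root –Zn replicate 1. With the replicate number as a block, root –Zn had 0 lower members and shoot –Fe 0 lower, again without shares over all probe sets. No other count of calls moved by over 1.5 times with the replicate numbers in the fit. The numbers did not pair the samples, since 84 pairs of arrays sharing a number correlated at -0.47 to 0.29 in their deviations from group means, with a median of -0.01, and 6 of 24 arrays correlated best with their own number. Signals at the floor and 3 arrays per group limit what could be called.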
